A study of Mus musculus with 2 samples.

Results

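The family of miR-103 and miR-107 was followed in the adrenal gland of young mice. Its 3 hairpin genes, Mir103-1, Mir103-2 and Mir107, were taken from the 2202 miRNA genes counted in each library by their symbols in GENCODE M21. The data are microRNA-seq counts from 1 group of 2 libraries, biological replicates 1 and 2, of adrenal gland tissue. The mice were male B6CASTF1/J, an F1 hybrid strain, at an age of 14 days, and the labels name no treatment. Each library had its own biosample, each described with 3 males, and both cite the same donor record, and the sources used here do not say whether animals were pooled. The family was chosen by symbol, but with the counts of both libraries already known, including the ratio of Mir107 between them. Levels and ratios are therefore a description without a test.

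The hairpins lie in introns of pantothenate kinase genes. These enzymes phosphorylate pantothenate, vitamin B5, in the first step of coenzyme A synthesis, and coenzyme A carries the acetyl groups from which cholesterol, the starting point of adrenal steroids, is built. An intronic hairpin is cut from the host transcript by Drosha and then by Dicer, which leaves a short RNA from either arm. The seed, bases 2 to 8 of that RNA, is the main determinant of which mRNAs it represses. The family is known for targeting Caveolin-1, which affects insulin signalling, and Dicer itself.

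The mature RNAs are shown because the 3 loci give nearly the same product, and the bases in which they differ decide whether a read can be placed at 1 gene. Sequences are from RefSeq on GRCm38.p6 and all 3 genes matched by symbol. Capitals mark the seed. The first 2 lines are the 3′ arms and the next 3 the 5′ arms.
miR-103-3p, from Mir103-1 and Mir103-2: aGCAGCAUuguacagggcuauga
miR-107-3p, from Mir107: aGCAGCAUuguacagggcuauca
miR-103-1-5p, from Mir103-1: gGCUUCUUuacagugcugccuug
miR-103-2-5p, from Mir103-2: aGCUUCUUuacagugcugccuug
miR-107-5p, from Mir107: aGCUUCUUuacaguguugccuug

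All 3′ arms share the seed GCAGCAU and all 5′ arms share GCUUCUU. No other mature miRNA in the RefSeq table used here has either seed. With positions counted from 1 at the 5′ end, miR-103-3p differs from miR-107-3p by G22C alone. The 5′ arms differ by G1A between miR-103-1-5p and miR-103-2-5p, and by C16U between miR-103-2-5p and miR-107-5p. Each mature RNA is 23 bases long.

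The hairpins, with both mature arms in capitals, show where the loci diverge outside the arms, beside the few differences within them.
Mir103-1: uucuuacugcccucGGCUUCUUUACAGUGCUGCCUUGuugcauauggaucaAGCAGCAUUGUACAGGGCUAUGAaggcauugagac
Mir103-2: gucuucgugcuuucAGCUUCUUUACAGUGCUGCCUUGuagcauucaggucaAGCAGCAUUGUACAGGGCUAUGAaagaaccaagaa
Mir107: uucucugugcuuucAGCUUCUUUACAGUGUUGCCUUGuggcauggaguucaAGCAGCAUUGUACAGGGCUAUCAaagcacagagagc

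In every hairpin the 5′ arm runs from base 15 to 37 and the 3′ arm from base 52 to 74. The 2 Mir103 hairpins are 80.2% identical over their alignment, Mir103-1 and Mir107 80.5%, and Mir103-2 and Mir107 83.9%. The closest pair by hairpin sequence thus joins Mir107 to Mir103-2, whereas the identical mature RNA joins Mir103-1 to Mir103-2.

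The 3 loci have the same architecture. Mir107 (ENSMUSG00000065594.1) lies on chromosome 19 from 34820687 to 34820773, on the minus strand, in intron 5 of Pank1. Mir103-2 (ENSMUSG00000065563.1) lies on chromosome 2 from 131288052 to 131288137, on the plus strand, in intron 5 of Pank2. Mir103-1 (ENSMUSG00000065553.1) lies on chromosome 11 from 35782396 to 35782481, on the plus strand, in intron 5 of Pank3. Positions are on mm10. Each hairpin has the strand of its host, and the principal transcript of each host has 7 exons.

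The introns differ in length, at 7282 bases in Pank1, 5801 in Pank2 and 1740 in Pank3. Mir107 begins 326 bases after the upstream exon and ends 6869 before the downstream exon, and for Mir103-2 these distances are 454 and 5261. Mir103-1 lies nearer the middle of its shorter intron, 688 bases from the upstream and 966 from the downstream exon. None overlaps an annotated exon of its host, and no gene other than the host overlaps a hairpin. Pank4, the related gene whose product lacks pantothenate kinase activity, contains no annotated miRNA hairpin.

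**Figure D1:**
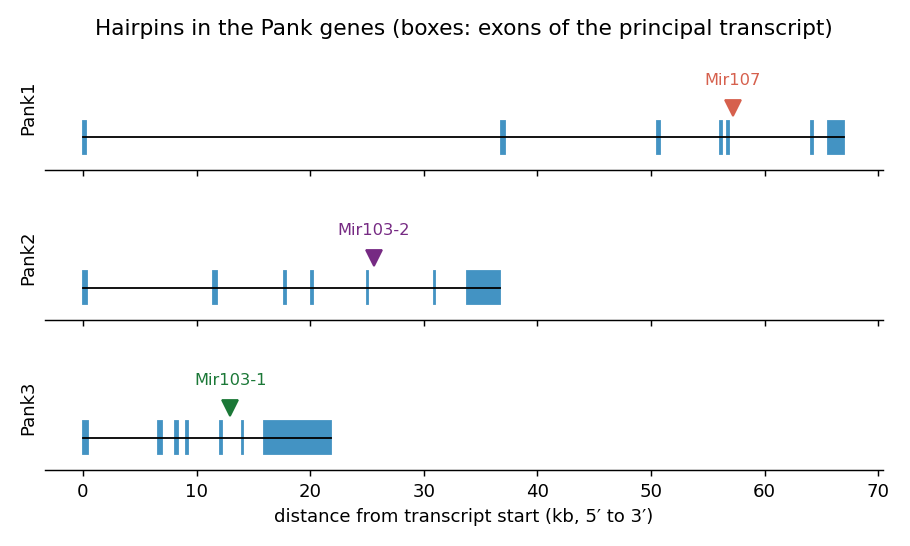
Exons of the principal transcript (boxes) of Pank1, Pank2 and Pank3 against the distance from the transcript start in kb, with a triangle at the hairpin. In each gene the hairpin lies in intron 5, close to the upstream exon in Pank1 and Pank2 and nearer the middle of the intron in Pank3.

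Mir107 carried nearly all counts of the family. Levels are given in CPM, the reads on the strand of the gene (sense counts) scaled so that all miRNA genes of a library add up to 1000000. The unscaled total was 3024662 in replicate 1 and 3464837 in replicate 2. Mir107 was at 4374 CPM in replicate 1, from 13230 reads, and at 856 CPM in replicate 2, from 2967 reads. Its mean was 2615 ± 2487 CPM (SD, n = 2). It ranked 37th of 2202 genes in replicate 1 and 90th in replicate 2.

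Mir103-2 was at 51.9 CPM in replicate 1, from 157 reads, and at 13.3 CPM in replicate 2, from 46 reads, with a mean of 32.6 ± 27.3 (SD, n = 2). Mir103-1 was at 6.94 CPM in replicate 1, from 21 reads, and at 1.73 CPM in replicate 2, from 6 reads, with a mean of 4.34 ± 3.68 (SD, n = 2). The order Mir107, Mir103-2, Mir103-1 was the same in both libraries, and each gene was higher in replicate 1. At a detection limit of 2 CPM in both libraries, Mir107 and Mir103-2 were detected and Mir103-1 was not, because of replicate 2. The opposite strand held 0 reads at all 3 hairpins, where 3 counts would be 0.992 CPM in replicate 1 and 0.866 in replicate 2.

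**Figure D2:**
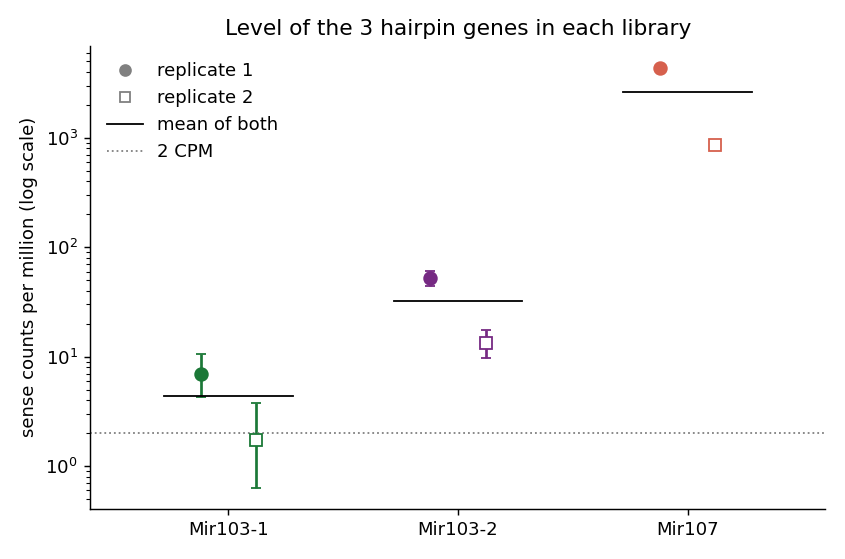
Sense CPM (log axis) of Mir103-1, Mir103-2 and Mir107 in replicate 1 (filled circles) and replicate 2 (open squares), with exact 95% counting intervals and the mean of both as a line. Each gene is lower in replicate 2, and Mir103-1 at 1.73 CPM falls below the dotted line at 2 CPM.

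The family as a whole took 0.443% of the sense reads of replicate 1 (exact Clopper-Pearson 95% interval 0.436 to 0.451) and 0.0871% of those of replicate 2 (0.0841 to 0.0903). As PCR copies of a molecule are counted again, these intervals and all that follow reflect counting error alone. Of the family counts, 98.7% in replicate 1 (98.5 to 98.9) belonged to Mir107, and 98.3% in replicate 2 (97.7 to 98.7). Mir103-2 held 1.17% (0.996 to 1.37) and 1.52% (1.12 to 2.03), and Mir103-1 held 0.157% (0.0970 to 0.239) and 0.199% (0.0730 to 0.432). The summed level of the family was 5.09-fold lower in replicate 2 (exact conditional interval 4.89 to 5.29).

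These shares describe assigned reads, not mature RNA. Reads that map to several places stand in a summary row of each file and in no gene: 1972020 in replicate 1 and 2497097 in replicate 2. They can come from any locus and are 27.5% and 29.4% of the reads of each file. How many come from the family was not measured. A read that matches miR-103-3p exactly from its first base lies in 3 hairpins at 18 to 21 bases and in the 2 Mir103 hairpins at 22 or 23. A read of miR-107-3p lies in 3 hairpins at 18 to 21 bases, but at 22 or 23 bases it lies in Mir107 alone, as it then includes the base that differs. From their first base the 5′ arms lie in 1 hairpin each at every length from 18 to 23. The count files hold neither read lengths nor arms, so the level of miR-103-3p was not measured by these counts.

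Over whole hairpins, 61 of 66 windows of 22 bases in Mir107 occur in no other annotated miRNA hairpin on either strand, against 55 of 65 in Mir103-2 and 57 of 65 in Mir103-1. The shared windows all fall within the family. In each hairpin 3 windows occur in 3 hairpins, and these begin just before the 3′ arm. Mir107 has 2 windows that occur in 2 hairpins, Mir103-1 has 5 and Mir103-2 has 7. None of the windows of the 3 hairpins occurs in an annotated transcript of the 53248 other genes. Introns and intergenic sequence were not searched.

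**Figure D3:**
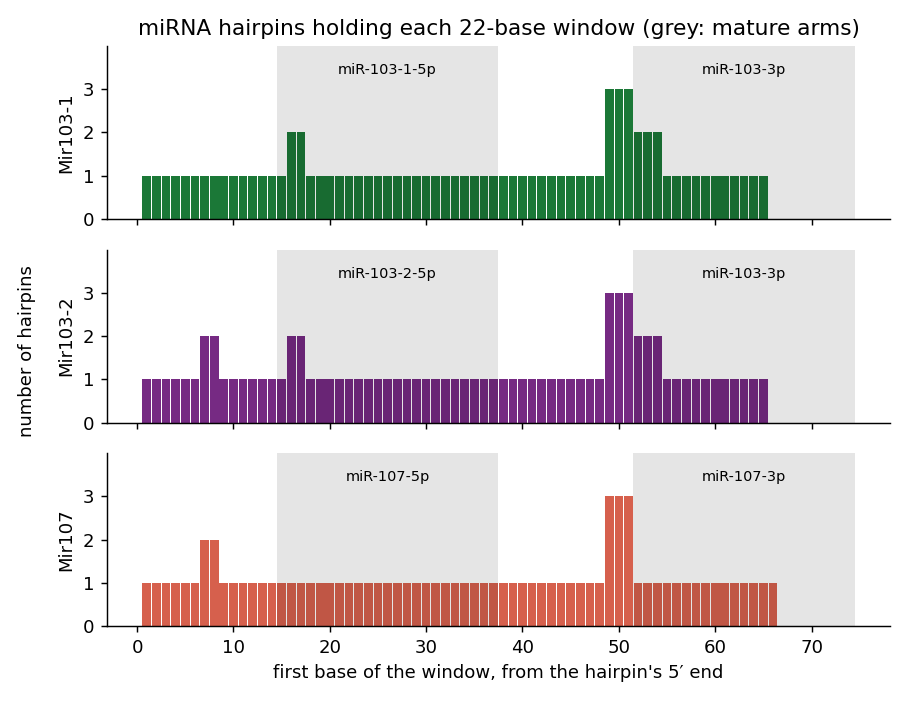
Number of annotated miRNA hairpins that hold each 22-base window of Mir103-1, Mir103-2 and Mir107, by the first base of the window, with the mature arms shaded. Windows found in 3 hairpins begin just before the 3′ arm, and at the first bases of that arm the 2 Mir103 hairpins stay at 2 while Mir107 is at 1.

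Genes with a repeated mature RNA were set beside the family. Of 1018 miRNA genes with a mature sequence in RefSeq, 57 have 1 arm that is identical in another gene, Mir103-1 and Mir103-2 among them. These had a median of 23.1 CPM, and 77.2% were detected, so Mir103-2 at 32.6 CPM lay above that median and Mir103-1 at 4.34 CPM below it. Mir107 is among 924 genes with no identical arm elsewhere, of which 30.1% were detected. Their median was 0.310 CPM and their upper quartile 10.5 CPM. The 37 genes with all arms repeated had a median of 0 CPM, and 13.5% were detected.

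All 3 genes were lower in replicate 2, by between 3.91-fold and 5.11-fold. Mir107 was 5.11-fold lower (exact conditional 95% interval 4.91 to 5.32), Mir103-2 3.91-fold (2.80 to 5.56) and Mir103-1 4.01-fold (1.57 to 12.1). The interval of Mir103-1 is wide because it rests on 27 reads in all, against 203 for Mir103-2 and 16197 for Mir107. On the log2 scale the ratios lay between -2.35 for Mir107 and -1.97 for Mir103-2.

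Ratios within a library differed less. Mir107 had 84.3 reads for each read of Mir103-2 in replicate 1 (72.0 to 99.3) and 64.5 in replicate 2 (48.2 to 88.3), a change of 0.765-fold with an interval of 0.546 to 1.09 that includes no change. Mir103-2 had 7.48 reads for each read of Mir103-1 in replicate 1 (4.72 to 12.4) and 7.67 in replicate 2 (3.27 to 21.97), a change of 1.03-fold (0.371 to 3.29). These intervals do not show that the genes kept the same ratio, and for Mir103-1 they leave room for a change of several fold.

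The libraries differed at many genes. An exact binomial test of the reads of each gene with 10 or more counts, with Benjamini-Hochberg adjustment over 413 genes, called 55.4% of genes in either direction, 28.8% as higher and 26.6% as lower in replicate 2. It compares these libraries, not conditions. All 3 members were called lower, which is given as a description because the ratio of Mir107 was known when the family was chosen. Among the 413 genes, 10.4% were 2-fold or more lower in replicate 2, as were all 3 members. Counting from the lowest ratio, Mir107 was 10th of the 413, Mir103-1 16th and Mir103-2 17th. Of the 189 genes at 100 CPM or more, 6.88% were 2-fold or more lower, and Mir107, the member at that level, had the 3rd lowest ratio. The quartiles of the log2 ratio over those 189 genes were -0.26 and 0.39.

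**Figure D4:**
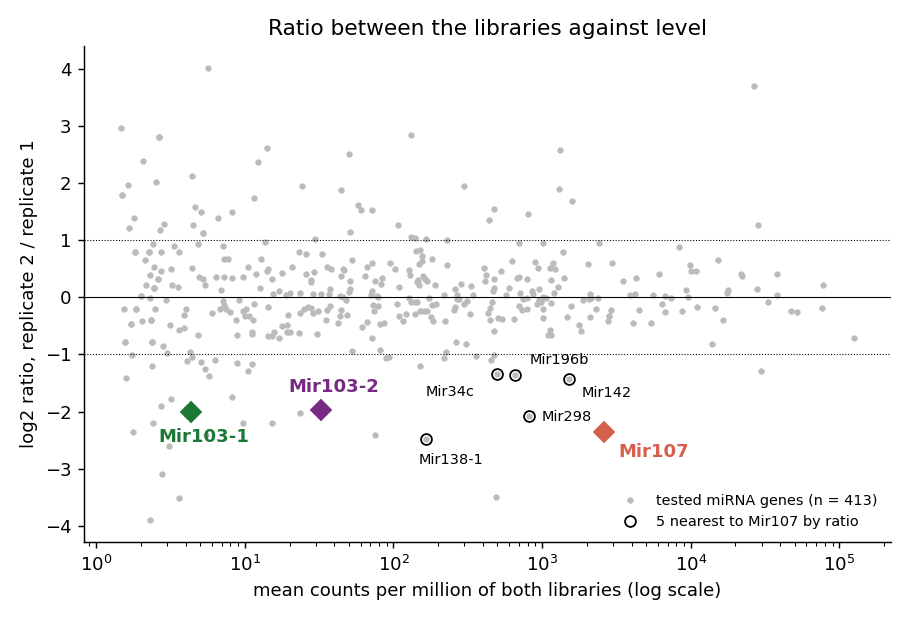
Log2 ratio of replicate 2 to replicate 1 against the mean CPM of both libraries (log axis) for 413 tested miRNA genes, with the 3 members as diamonds, the 5 genes nearest to Mir107 by ratio as open circles, and dotted lines at a 2-fold difference. The members lie between -2.35 and -1.97, below most genes of their level.

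The genes of 100 CPM or more whose ratio was nearest to that of Mir107 were Mir138-1, Mir298, Mir142, Mir196b and Mir34c. The likeness is the distance between single log2 ratios over 2 libraries. Mir138-1, a miRNA abundant in brain, was at 279 CPM in replicate 1 and 50.2 in replicate 2, which is 5.56-fold lower and 0.12 from Mir107. Mir298 was at 1310 and 311 CPM, 4.21-fold lower and 0.28 away. The next genes stood further off, with Mir142, a miRNA of blood cells, 2.69-fold lower, and Mir196b of the Hox clusters and Mir34c 2.56-fold and 2.55-fold lower.

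Pairs of genes with an identical arm allow the pair of Mir103 genes to be placed. In 23 such pairs with both genes tested, in which a gene can appear more than once, the 2 log2 ratios of a pair differed by a median of 0.29 and by 0.03 to 1.60. The Mir103 genes differed by 0.04, with the wide interval of Mir103-1 given above. In 2 of the 23 pairs both genes were 2-fold or more lower in replicate 2. One is the Mir103 pair. The other is Mir138-1, with 844 and 174 reads, and Mir138-2, with 384 and 83, a pair that was singled out after its values were seen.

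Mir107 was set beside the genes closest to it in mean level. Mir20a, at 2825 ± 445 CPM, and Mir382, at 2760 ± 544, came next above it. Mir125a, at 2423 ± 1087, and Mir351, at 2378 ± 20.0, came next below. The gaps between these means are smaller than the SD of Mir107, so their order does not hold beyond the spread. In replicate 1 Mir107 at 4374 CPM was above all 4, which lay between 1654 and 3145. In replicate 2 it was at 856 CPM, below all 4, which lay between 2364 and 3192. As these genes were chosen by the mean of both libraries, their places around Mir107 restate its known ratio.

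The wider group of miR-15 and miR-107 shares the core AGCAGC near the 5′ end of the mature RNA, but not its position. In the 3′ arms of this family the core begins at base 1. In the sequences of miR-15, miR-16, miR-195, miR-322, miR-497 and miR-503 it begins at base 2, so their seeds differ from GCAGCAU. The shift can be read from 2 examples, again with bases 2 to 8 in capitals.
miR-16-5p, from Mir16-1 and Mir16-2: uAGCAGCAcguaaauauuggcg
miR-322-5p, from Mir322: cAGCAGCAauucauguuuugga

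The other genes of that group had ratios on both sides of an even level. Of 11 listed symbols 10 were measured, and the other is a second name of a gene already among them. Of these 10 genes 8 could be tested. Among the 8, 2 were called higher and 4 lower in replicate 2, where 28.8% and 26.6% of all tested genes were. None of the 8 was 2-fold or more lower, against 10.4% of all tested genes. Their median log2 ratio was -0.04, against 0.03 over all 413 tested genes. Mir322, the mouse counterpart of human miR-424, led the group at 34036 CPM in replicate 1 and 32072 in replicate 2, a mean of 33054 ± 1389. Mir16-1 was at 3148 and 2518 CPM and Mir15a, its neighbour on chromosome 14, at 2360 and 1851, which is 1.25-fold and 1.27-fold lower. Mir195a went the other way, from 751 CPM in replicate 1 to 2421 in replicate 2, 3.22-fold higher (3.08 to 3.38). Mir195b and Mir497b had no sense reads in either library. Outside the list, miR-1906, miR-6340, miR-6342, miR-6353 and miR-6419 also hold the core near their 5′ end, and their genes had 0 sense reads in both libraries. The summed level of the group was 43323 CPM in replicate 1 and 41513 in replicate 2.

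**Figure D5:**
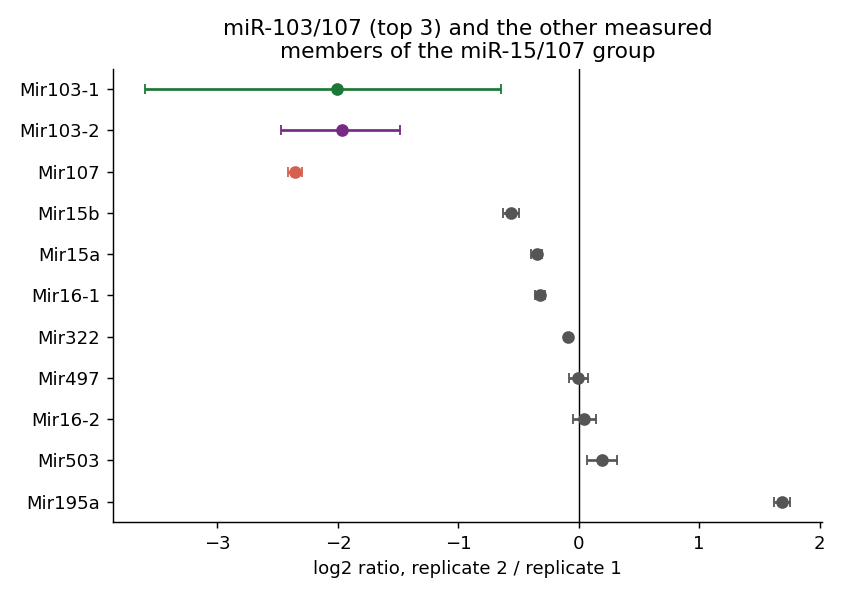
Log2 ratio of replicate 2 to replicate 1, with exact 95% counting intervals, for the 3 members (top) and the 8 tested genes of the rest of the miR-15 and miR-107 group. The members lie between -2.35 and -1.97 and the other genes between -0.56 for Mir15b and 1.69 for Mir195a.

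A second list held miRNAs linked to lipid and insulin metabolism, a field in which the family is known. All 11 were measured and tested, and 7 were called higher and 3 lower, beside 28.8% and 26.6% of all tested genes. Their median log2 ratio was 0.21. The most abundant were Mir378a, 1.16-fold higher in replicate 2, Mir143, 1.18-fold lower, Mir375, 1.11-fold higher, and Mir122, 13.1-fold higher. One of the 11 was 2-fold or more lower, a share near the 10.4% of all tested genes. It was Mir34a, 2.13-fold lower from 613 to 288 CPM. Mir33, which like the members lies in an intron, that of the sterol regulator Srebf2, was at 11.9 CPM in replicate 1 and 16.5 in replicate 2 and was not called.

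Markers of other cell types also differed between the libraries, and their part in the ratios of the family was not tested. The calls stand beside those of all tested genes, of which 28.8% were called higher and 26.6% lower in replicate 2. The 3 hepatocyte miRNAs, Mir122, Mir192 and Mir194-2, were all called higher in replicate 2. Their summed level was 3855 CPM in replicate 1 and 49813 in replicate 2. The 3 red blood cell miRNAs summed to 43959 and 19202 CPM, with Mir451a and Mir486 called lower and Mir144 not called. The 4 white blood cell miRNAs summed to 3466 and 1710 CPM, with Mir142, Mir150 and Mir155 called lower and Mir223 higher. Endothelial Mir126a was at 155646 and 94732 CPM and was called lower. Of the 5 striated muscle miRNAs, Mir206 was at 5.95 and 9.52 CPM, Mir1a-2 had 1 read, and Mir1a-1, Mir133a-1 and Mir133a-2 had none.

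The neuroendocrine miRNAs, which include those of the adrenal medulla, were present at similar summed levels of 31136 and 34282 CPM. Mir375 led them at 28104 ± 2105 CPM and Mir7b followed at 4216 ± 135. Both were called higher, at 1.11-fold and 1.05-fold the level of replicate 1, as were 28.8% of all tested genes. Mir7-1 and Mir7-2 were at 311 ± 10.4 and 78.2 ± 5.76 CPM and were not called. With both Mir126a and Mir122 left out of the library totals, the ratio of Mir107 was 5.20-fold lower in replicate 2, that of Mir103-2 3.98-fold and that of Mir103-1 4.08-fold. Leaving them out changes the totals alone and shifts every gene alike, so it is no test of the mix of cells. In counts from tissue, fewer cells that make the family and less of it per cell cannot be told apart. Nor can either be told apart from a difference in library preparation, read length or the assignment of reads.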

How the data were processed

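The deposited files hold unnormalized read counts of each miRNA gene, 1 file per library, in 3 count columns. From the values these were read as either, same and opposite strand. For some genes, Mir126a among them, the either-strand count is below the sense count. Per the deposited notes, the files use mm10 and GENCODE M21. The sources used here name no aligner or counter. All 2202 identifiers matched GENCODE M21. The 4 summary rows stayed out of totals and tests. Sense counts were 42.2% of all reads in replicate 1 and 40.9% in replicate 2, and 1 count was 0.331 and 0.289 CPM.

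Shares have exact Clopper-Pearson intervals and ratios exact conditional intervals at 95%. The exact two-sided binomial test with Benjamini-Hochberg adjustment at 0.05 ran over all genes with 10 or more counts. It was tried on simulated Poisson counts, which hold no variation between animals and no PCR copies, so that trial covers counting error alone. A gene with reads in 1 library alone was given 3 counts in the other for its log2 ratio. With 1 group of 2 libraries, the smallest p of an exact sign-flip test is 0.5, so levels were not tested and no count model was fitted.

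Named genes are the members, their hosts, up to 4 genes of highest mean CPM in the miR-15 and miR-107 group and the marker lists, the 5 genes of 100 CPM or more nearest to Mir107 in log2 ratio, and its 2 neighbours on each side by mean CPM. The genes of the lipid and insulin list, Mir138-2, Mir15b, Mir195b, Mir497b, Mir133a-2 and the genes of other miRNAs with the AGCAGC core stand outside this rule and were chosen after their values were seen. Members, lists and rules were chosen with earlier results of these data known. Alternatives were unstranded counts, other totals, edgeR's TMM, DESeq2's size factors, other filters and window lengths, and each library alone. Software was Python 3.11.15, SciPy 1.17.1, pandas 2.3.3, R 4.3.3, edgeR 4.0.16 and DESeq2 1.42.0.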

Additional observations from a re-analysis of the deposited data

Results flagged for a closer look

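Part of each library was assigned to no gene and enters no comparison above. The share of reads that mapped to several places was 27.5% in replicate 1 and 29.4% in replicate 2. Reads that did not map were 23.5% and 23.0%. A further 6.79% and 6.65% were counted as lying in no miRNA gene on the sense strand. The design holds no control library for these shares, and how many of such reads come from the family of miR-103 and miR-107 was not measured.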

How the results depend on the processing

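The 3 members stayed lower in replicate 2 under all 5 alternatives for the ratio. These alternatives change the library totals and not the reads of the members, so they could hardly alter the direction. With unstranded counts, which shift the median log2 ratio of 385 genes by -0.14, Mir107 was at -2.49 on the log2 scale, and the split of called genes was 74 higher and 139 lower in place of 119 and 110. In these counts Mir126a had 6 and 12 reads in replicates 1 and 2, against 470778 and 328230 sense reads. Mir378a had 0 in both, against 217252 and 288293. The library totals were then 2122450 and 2670655. Genes differing 2-fold or more numbered 28 of 189 at 100 CPM or more and 12 of 110 at 500 CPM or more. Windows found in 1 annotated hairpin were 88.3% at 22 bases, 75.5% at 18 and 96.8% at 25. With 1 library left out, the mean CPM was 856 to 4374 for Mir107, 13.3 to 51.9 for Mir103-2 and 1.73 to 6.94 for Mir103-1, and the share of Mir107 98.3% to 98.7%. With all reads of the file as the total, the mean levels were 1097, 13.7 and 1.82 CPM. No paired analysis was possible because the design has 1 group. Depth limits Mir103-1 most, at 6 reads in replicate 2, and 2 libraries give no test of levels.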
